A study of Homo sapiens with 12 samples.

Results

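The transcripts described here are those of 48 genes of glycolysis, glycogen metabolism and the response to low oxygen, measured in HK-2, an immortalised cell line derived from the epithelium of the human proximal tubule, the part of the kidney that takes back most of the filtered glucose. The set was a fixed list of gene names, chosen with earlier results of these data known, so its shares of called genes are descriptive. Every probe set annotated to exactly 1 of those names was taken, whatever its values. This gave 107 of the 54675 probe sets on the array, naming 45 of the 48 genes. CA9, SLC16A1 and SLC16A3 had no probe set with that symbol alone and are not analysed here. Of the 45 genes, 44 exceeded log2 4 on 3 or more arrays and were tested among 10699 genes. The exception was ALDOC, which read 5.14 on a single array (Ota, 24 h, replicate 2) and 2.20 to 2.47 on the others.

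The study set cells given a low dose of Ota against control cells given the vehicle, at 24 h and at 72 h, on 12 arrays in 4 groups of 3. The labels neither state the concentration nor spell out Ota; OTA is a common abbreviation of ochratoxin A, a mold toxin that damages the kidney. All groups were the same line, grown in medium with insulin and 5 mM glucose, seeded 24 h before exposure and exposed at about 90% confluency. The 3 arrays of a group are called biological replicates with nothing further on how the cultures differed, so the p-values cover only the spread among these arrays, which may be technical.

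Glycolysis splits glucose into pyruvate in the cytosol, and lactate dehydrogenase turns pyruvate into lactate when it is not burned in mitochondria. Many of its enzymes, together with genes of pH control, collagen hydroxylation and vessel growth, are targets of the hypoxia-inducible factors (HIF), whose alpha subunits are hydroxylated and destroyed while oxygen is present. Proximal tubule cells in the kidney normally make glucose rather than use it, while cultured proximal tubule lines are commonly glycolytic. The gene HK2, which encodes hexokinase 2, is unrelated to the name of the cell line.

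Values are log2 expression values made by the authors with GCRMA, in which 1 unit is a doubling of signal, and levels of different probe sets cannot be ranked against each other. Arrays of a group correlated at 0.986 to 0.994 over the 10699 genes tested. The 3′ minus 5′ difference of the GAPDH control probe sets, a sign of RNA integrity, had group means between −0.08 and −0.06, close to each other in all 4 groups. Of 10 proximal tubule markers on the array only DPP4 was above log2 4, while all 6 general renal epithelial markers were, PAX8, CDH6, KRT8, KRT18, CDH1 and EPCAM. No endothelial, leukocyte or distal nephron marker was above log2 4, and PODXL and COL1A1 were the only podocyte and fibroblast markers that were. A gene is called changed at an adjusted p under 0.05 (limma over all 12 arrays, Benjamini-Hochberg over the 10699 genes); errors of differences are standard errors, and errors of levels are SD with n = 3.

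Read from the brightest probe set of each gene, no glycolytic enzyme rose after 24 h of Ota, and 10 of 16 were higher than control after 72 h. At 24 h, 3 of the 16 enzymes tested fell (PFKM, PFKL and ENO2) and none rose, where 31% of all genes were called, 9.44% higher and 21.6% lower. At 72 h, 10 of 16 rose and none fell, where 32% of all genes were called, 17.1% higher and 14.9% lower. The median enzyme differed from control by −0.15 on the log2 scale at 24 h and by 0.33 at 72 h, beside −0.06 and 0.01 for all genes tested. Those that rose were HK1, GPI, PFKP, TPI1, PGK1, PGAM1, ENO1, ENO2, PKM and LDHA, so the list runs from the phosphorylation of glucose to the making of lactate. Leaving out any array of the 72 h comparison gave 7 or 8 enzymes higher and none lower. Averaged over each gene's probe sets, 1 enzyme was higher and 5 were lower at 24 h, and 8 were higher and 1 lower at 72 h: PGK1 was the one higher at 24 h (0.53, adjusted p = 5.60e-05), and HK2 the one lower at 72 h. That PGK1 mean includes a single probe set with a far larger difference than the others, as given with the probe sets.

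**Figure D1:**
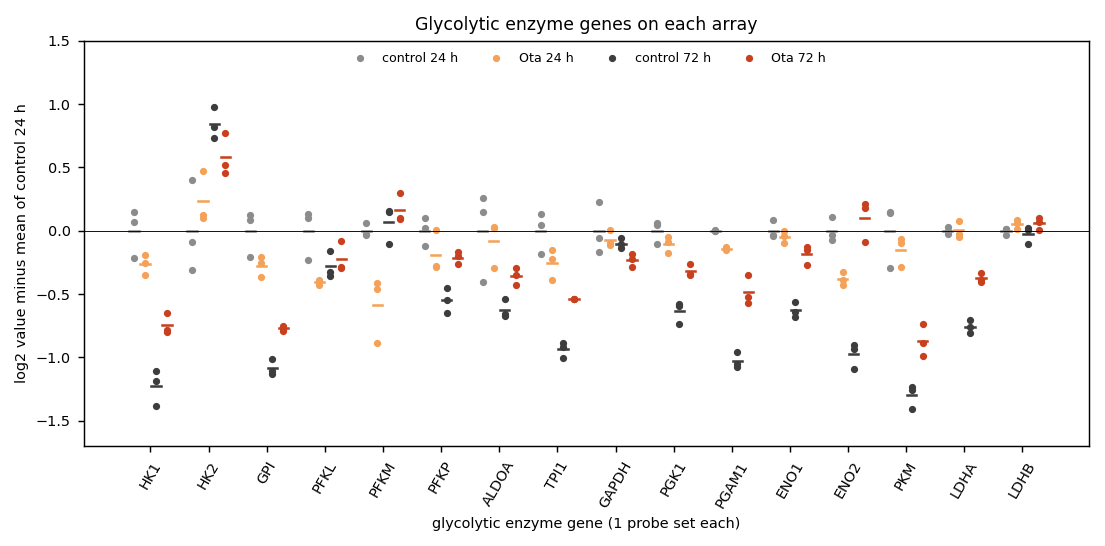
Log2 value of each of the 16 glycolytic enzymes tested on each of the 12 arrays, minus that gene's mean in control cells at 24 h; points are arrays, bars are group means, and the 4 groups are control and Ota at 24 h and 72 h. Most enzymes drop between 24 h and 72 h in control cells, and at 72 h the Ota arrays lie above the control arrays for 11 of the 16, among them ENO2, PGAM1 and HK1.

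ENO2, the neuronal form of enolase, had the largest difference among the enzymes at 72 h and the largest difference of responses. Its log2 values were 8.53, 8.67 and 8.49 in control cells and 8.24, 8.13 and 8.18 in the exposed cells at 24 h. At 72 h they were 7.63, 7.66 and 7.47 in control cells and 8.74, 8.47 and 8.78 in Ota cells. The groups did not overlap at either time, with all Ota arrays below control at 24 h and all above control at 72 h. ENO2 thus fell by 0.38 ± 0.10 at 24 h (limma adjusted p = 0.0146) and was 2.11-fold higher at 72 h (1.08 ± 0.10, adjusted p = 3.06e-05). The fall at 24 h was lost without Ota replicate 2 (adjusted p = 0.0514) or with the arrays shifted to a common median (0.0946). ENO2 was the only one of the 44 genes called in opposite directions at the 2 times.

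PGAM1, the phosphoglycerate mutase upstream of enolase, read 13.74, 13.74 and 13.75 in control and 13.59, 13.60 and 13.61 in the exposed cells at 24 h. Its values at 72 h were 12.79, 12.69 and 12.67 in control cells against 13.39, 13.22 and 13.17 in Ota cells. The 72 h groups were clearly apart, a difference of 0.55 ± 0.08 (adjusted p = 0.000504). HK1, the housekeeping hexokinase that commits glucose to the cell, read 9.68, 9.60 and 9.40 in control and 10.13, 9.99 and 10.00 in Ota cells at 72 h, without overlap (0.48 ± 0.11, adjusted p = 0.00751). ENO1, the common enolase, read 13.70, 13.67 and 13.78 in control and 14.08, 14.19 and 14.22 in Ota cells (0.45 ± 0.08, adjusted p = 0.00155). ENO1 and HK1 thus had all exposed arrays on the high side. LDHA, the subunit of lactate dehydrogenase that predominates in glycolytic tissue, gave 13.90, 13.96 and 13.86 against 14.26, 14.28 and 14.33 (0.38 ± 0.07, adjusted p = 0.00262). TPI1, triosephosphate isomerase, gave 12.48, 12.36 and 12.45 against 12.83, 12.83 and 12.82 (0.40 ± 0.10, adjusted p = 0.0105). Every Ota array was above every control array for these 5 genes at 72 h, and each kept its call when any 1 array was left out.

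The other 4 enzymes that rose at 72 h did so by 0.31 to 0.43, in calls that were lost without some of the arrays. PKM, the pyruvate kinase of most tissues, read 11.61, 11.63 and 11.46 in control and 11.88, 11.98 and 12.13 in Ota cells (0.43 ± 0.13, adjusted p = 0.0259). PFKP, the platelet-type phosphofructokinase, read 9.80, 9.69 and 9.89 in control against 10.08, 10.18 and 10.14 with Ota (0.34 ± 0.10, adjusted p = 0.0273). Neither gene's lowest exposed array reached down to the control range. PGK1, phosphoglycerate kinase, read 13.16, 13.01 and 13.15 in control against 13.48, 13.39 and 13.40 with Ota (0.32 ± 0.08, adjusted p = 0.0143). GPI, the isomerase that follows hexokinase, read 11.17, 11.05 and 11.07 in control against 11.43, 11.41 and 11.39 with Ota (0.31 ± 0.10, adjusted p = 0.0304). Groups did not overlap for any of these 4 genes. GPI missed the threshold without any 1 array but control replicate 1 (adjusted p 0.0645 to 0.0853), and PFKP without any 1 array but control replicate 3 (0.0519 to 0.0899). PKM missed it without control replicate 1 or 3 or Ota replicate 2 or 3 (0.0528 to 0.0952), and PGK1 without control replicate 2 or Ota replicate 1 (0.0522 to 0.0579). With the mean of all probe sets of a gene PFKP (0.15, adjusted p = 0.218) and PKM (0.23, adjusted p = 0.203) were not called, nor was PKM without the filter (0.0538) or GPI with arrays shifted to a common median (0.0581). The PGK1 mean was higher (0.73, adjusted p = 1.04e-05), raised by the same single probe set.

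PFKM and PFKL, the muscle and liver forms of phosphofructokinase, were the other enzymes lower at 24 h. PFKM read 9.99, 9.89 and 9.90 in control and 9.47, 9.04 and 9.52 in the exposed cells at 24 h, without overlap, and fell by 0.59 ± 0.13 (adjusted p = 0.00532). PFKL read 8.45, 8.49 and 8.13 in control and 7.96, 7.93 and 7.96 in Ota cells, also without overlap, and fell by 0.40 ± 0.11 (adjusted p = 0.0156). Neither passed the test at 72 h (0.09 and 0.06), so PFKM and PFKL were called at 24 h alone and PFKP at 72 h alone. The PFKL call was lost without control replicate 1 or 2 (adjusted p 0.0537 to 0.0600) or with arrays shifted to a common median (0.0916) or only the arrays compared fitted (0.0525). Without control replicate 3, 6 enzymes rather than 3 were lower at 24 h. The replicate numbers pair the samples at 24 h, and with the number as a block HK1 (−0.26, adjusted p = 0.0380) and GPI (−0.27, adjusted p = 0.0306) were called lower as well.

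On their brightest probe sets the remaining 4 enzymes, HK2, ALDOA, GAPDH and LDHB, passed the test at neither time. HK2, the hexokinase isoform induced by growth signals, differed by 0.23 ± 0.17 at 24 h and −0.26 ± 0.17 at 72 h, with overlapping groups. Averaged over its probe sets, however, HK2 was called lower at both times (−0.57, adjusted p = 0.00325, and −0.69, adjusted p = 0.00103). ALDOA, the common aldolase, differed by −0.08 ± 0.16 and 0.27 ± 0.16, with all Ota arrays above all control arrays at 72 h. With only the arrays compared fitted, ALDOA was called higher at 72 h (adjusted p = 0.0406). GAPDH (−0.13 ± 0.10 at 72 h) and LDHB (0.08 ± 0.07) were close to the top of the scale, with only 0.0348% and 0.0256% of probe sets brighter, where a difference may be compressed.

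The response itself differed between the times for 11 of the 16 enzymes, all towards a higher value at 72 h, where 21.3% of all genes were called, 15.5% of all genes in that direction and 5.79% in the other. The difference of the responses had a median of 0.51 over the enzymes and 0.09 over all genes. It was 1.46 ± 0.14 for ENO2 (adjusted p = 0.000132), 0.75 ± 0.16 for HK1 (adjusted p = 0.00831) and 0.69 ± 0.11 for PGAM1 (adjusted p = 0.00226). PFKM (0.68), TPI1 (0.65), GPI (0.59), PKM (0.58), PFKP (0.53), ENO1 (0.49), PGK1 (0.42) and LDHA (0.38) made up the rest. This count depended on the scaling. Shifting every array to a common median moved the median of all genes by −0.14 and left HK1, PFKM, TPI1, PGAM1 and ENO2, 5 of 16, with a median of 0.37. Over all genes the same shift changed the calls from 1659 higher and 619 lower to 1164 and 1184, while repeated quantile normalization gave 1397 and 842. Without control 24 h replicate 1, 7 of 16 enzymes were called towards a higher value at 72 h and HK2 towards a lower one (−0.70, adjusted p = 0.0390). Averaged over each gene's probe sets 9 of 16 were called, with PFKL added (0.48, adjusted p = 0.0336) and without PFKP (adjusted p = 0.111), PGK1 (0.101) and PKM (0.113), and PKM was also lost without the filter (0.0852).

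The 72 h comparison shares its control arrays with the time course in control cells, so both are given side by side. In control cells 11 of 16 enzymes were lower at 72 h than at 24 h and HK2 alone was higher (0.84), where 46.4% of all genes were called, 22.7% higher and 23.6% lower. The falls were largest for PKM, from 12.87 ± 0.25 to 11.57 ± 0.10, and HK1, from 10.78 ± 0.19 to 9.56 ± 0.14. The median enzyme differed by −0.63 between the times, beside −0.00 for all genes. In Ota cells 6 of 16 were lower at 72 h than at 24 h and PFKM and ENO2 were higher, where 32.2% of all genes were called, 22.2% higher and 9.99% lower. HK1 went from 10.52 ± 0.08 to 10.04 ± 0.08 in Ota cells. At 72 h the Ota means of the 10 enzymes that rose lay above control at 72 h, and the Ota mean of each but ENO2 stayed below control at 24 h (8.56 in control at 24 h, 8.66 in Ota at 72 h). In the Ota time course the arrays shifted to a common median changed the calls over all genes from 2378 higher and 1069 lower to 1668 and 2001.

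Promoters of the enzymes were searched for the HIF core letters ACGTG and GCGTG on both strands in the 250 bases before the gene start, from the RefSeq promoter table of build GRCh38.p14, which held 38 of the 44 genes. The palindrome CACGTG holds ACGTG on both strands and counts as 2. ENO2, PGAM1 and LDHA are shown because the genes rose together at 72 h while their promoters differ in these letters; capitals mark the cores, and an overlapping pair shows as CACGTG. The windows are chr12:6914330-6914579 for ENO2, chr10:97427568-97427817 for PGAM1 and chr11:18394313-18394562 for LDHA, all on the + strand, 5′ to 3′ and ending at the base before the start.
ENO2: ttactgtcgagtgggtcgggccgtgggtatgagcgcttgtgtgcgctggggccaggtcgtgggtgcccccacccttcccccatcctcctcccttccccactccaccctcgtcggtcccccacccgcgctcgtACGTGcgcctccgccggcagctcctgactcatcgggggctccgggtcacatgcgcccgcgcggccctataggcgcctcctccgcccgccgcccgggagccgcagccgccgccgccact
PGAM1: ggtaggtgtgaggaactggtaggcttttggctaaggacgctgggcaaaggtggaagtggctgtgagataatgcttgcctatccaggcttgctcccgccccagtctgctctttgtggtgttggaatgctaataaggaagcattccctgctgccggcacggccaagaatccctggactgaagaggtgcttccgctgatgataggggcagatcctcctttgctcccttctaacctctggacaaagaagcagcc
LDHA: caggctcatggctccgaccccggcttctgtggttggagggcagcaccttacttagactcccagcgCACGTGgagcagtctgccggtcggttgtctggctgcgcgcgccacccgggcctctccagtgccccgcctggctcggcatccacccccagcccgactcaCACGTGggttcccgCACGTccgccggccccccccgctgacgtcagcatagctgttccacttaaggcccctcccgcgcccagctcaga
ENO2 has 1 core, PGAM1 none and LDHA 5. A core was present in 9 of 16 enzyme promoters (56.2%), 7 of them with ACGTG (43.8%), beside 42.6% and 18.5% of all 27305 promoters. Among the 38 genes of the whole set a core was present in 10 of 16 that rose at 72 h, 3 of 5 that fell and 11 of 17 that passed in neither direction (62.5%, 60% and 64.7%). A match describes the letters in this window only. A single window was searched for each gene, and any other start of a gene was not.

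The glucose transporters SLC2A1 and SLC2A3 passed the test in no Ota comparison. SLC2A1, the basal glucose transporter also called GLUT1, differed by −0.18 ± 0.16 at 24 h and −0.17 ± 0.16 at 72 h. SLC2A3, the high-affinity transporter called GLUT3, differed by −0.28 ± 0.16 and 0.19 ± 0.16. Both had overlapping groups at both times. A further 2 probe sets carry the names SLC2A3 and SLC2A14 together and were not used.

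**Figure D2:**
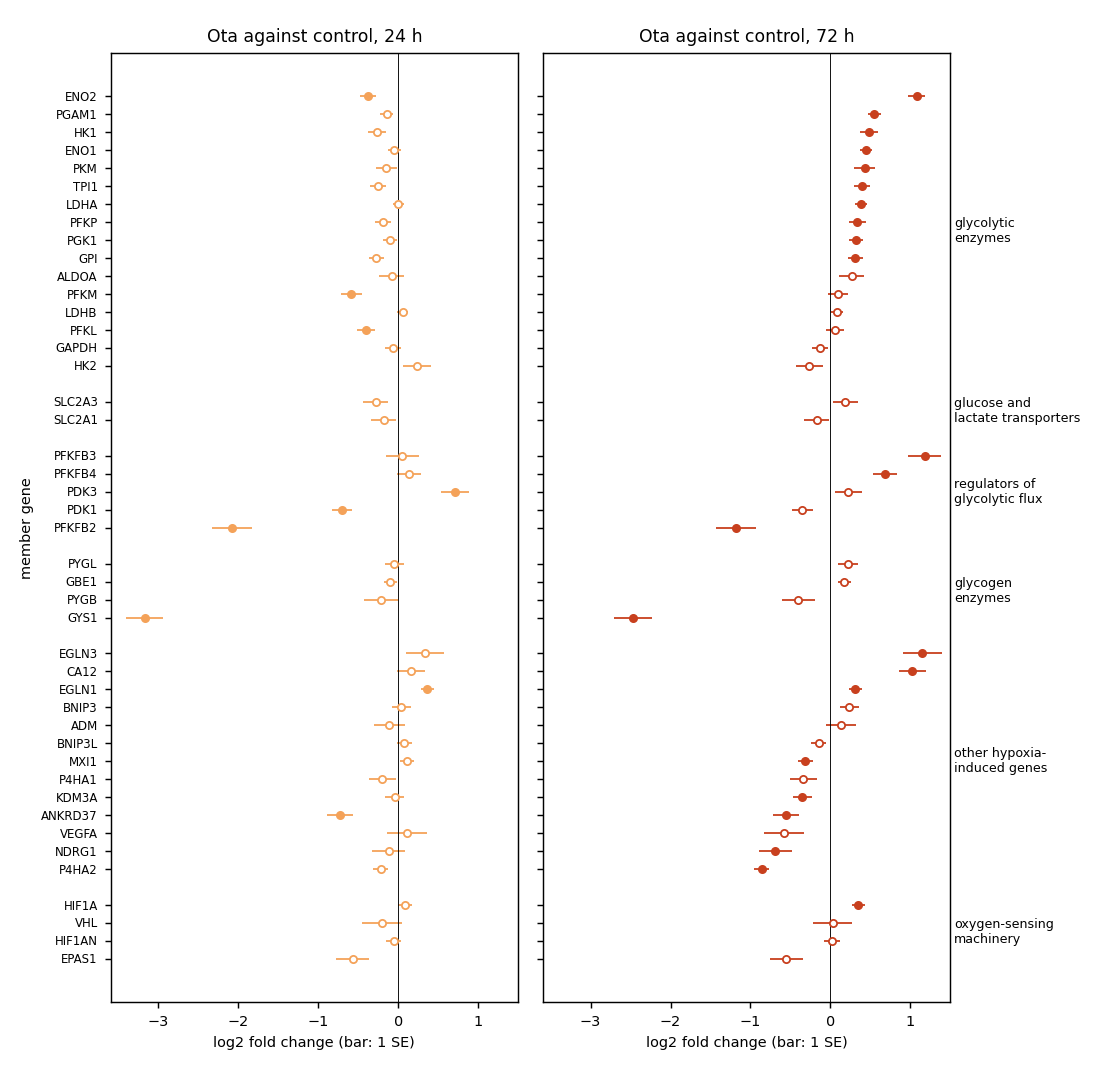
Log2 difference between Ota and control cells at 24 h and at 72 h for the 44 genes tested, grouped by role, with bars of 1 standard error; filled symbols passed the test at an adjusted p under 0.05. GYS1 and PFKFB2 lie far below 0 at both times, and most enzymes lie at or below 0 at 24 h and above 0 at 72 h.

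On the brightest probe sets, the largest Ota differences were in GYS1 and PFKFB2, which act on glycogen and fructose 2,6-bisphosphate, rather than in the glycolytic chain. Another PGK1 probe set, given with the probe sets, differed by about as much as GYS1 at 24 h. GYS1, the muscle-type glycogen synthase, read 7.74, 7.46 and 7.63 in control and 4.61, 4.03 and 4.68 in the exposed cells at 24 h. At 72 h it read 6.25, 6.32 and 6.38 in control and 4.40, 3.36 and 3.78 in Ota cells. Every Ota array was more than 1 log2 unit below every control array of its time. GYS1 fell by 3.17 ± 0.23 at 24 h, 9.02-fold (adjusted p = 4.33e-06), and by 2.47 ± 0.23 at 72 h, 5.54-fold (adjusted p = 2.95e-05). Its levels in Ota cells were near the log2 value of 4 used as the filter, where GCRMA values flatten, so the size of the fold is uncertain. RNA was pooled over each culture, so a lower level in every cell and its loss from some of the cells cannot be told apart.

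The GYS1 promoter is shown because no other gene of the set fell as far. Its window, chr19:48993310-48993559 on the − strand of GRCh38.p14, holds 2 cores of the GCGTG form, in capitals.
GYS1: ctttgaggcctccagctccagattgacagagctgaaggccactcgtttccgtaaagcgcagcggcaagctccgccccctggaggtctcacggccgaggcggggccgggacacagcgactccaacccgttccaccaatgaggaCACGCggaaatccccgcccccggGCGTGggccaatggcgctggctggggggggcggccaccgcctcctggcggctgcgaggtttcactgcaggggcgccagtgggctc
In the main fit the other glycogen genes passed at neither time. GBE1, the branching enzyme, differed by −0.10 ± 0.08 at 24 h and 0.17 ± 0.08 at 72 h. The glycogen phosphorylases PYGB (−0.40 ± 0.21 at 72 h) and PYGL (0.22 ± 0.12), which release glucose units from glycogen, went in opposite directions without passing. Without Ota replicate 2, however, PYGB was called lower at 72 h (−0.63, adjusted p = 0.0309). In the main fit the fall of GYS1 did not extend by the test to the other 3 glycogen genes.

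PFKFB enzymes make and break fructose 2,6-bisphosphate, the main activator of phosphofructokinase, and the 3 genes tested did not move together. PFKFB2, the heart-type isoform, read 6.42, 6.54 and 6.53 in control and 4.96, 3.76 and 4.53 in the exposed cells at 24 h. Its values at 72 h were 7.24, 7.82 and 7.71 in control against 6.59, 6.40 and 6.23 with Ota. All Ota arrays were below all control arrays at both times, a fall by 2.08 ± 0.25 at 24 h (adjusted p = 0.000119) and by 1.18 ± 0.25 at 72 h (adjusted p = 0.00449). That direction belongs to 1 probe set: another PFKFB2 probe set was higher in Ota cells at 72 h, as given with the probe sets. Averaged over its probe sets the difference at 24 h was −0.46 (adjusted p = 0.00795). On the brightest probe set the Ota values at 24 h were near the filter value of 4, so the size of that fall is uncertain.

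PFKFB3, the isoform with high kinase activity and a known HIF target, read 8.97, 8.80 and 9.41 in control and 9.08, 8.81 and 9.45 in the exposed cells at 24 h. At 72 h the values were 9.07, 8.84 and 9.31 in control against 10.21, 10.02 and 10.52 with Ota. The groups were interleaved at 24 h and fully apart at 72 h, where PFKFB3 was 2.27-fold higher (1.18 ± 0.21, adjusted p = 0.00140). Its response differed between the times by 1.13 ± 0.29 (adjusted p = 0.0194), a call lost without the filter (0.0599). With the replicate number as a block that call held (adjusted p = 0.000266). PFKFB4, another hypoxia-induced isoform, was low on all arrays, with 3.47, 3.91 and 3.21 in control and 4.18, 4.33 and 4.13 in Ota cells at 72 h. The PFKFB4 groups did not overlap (0.69 ± 0.15, adjusted p = 0.00556), though the control values were below the filter value of 4.

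Pyruvate dehydrogenase kinases hold pyruvate back from mitochondria, and PDK1 and PDK3 went apart at 24 h. PDK1, a HIF target, read 9.12, 9.36 and 9.05 in control and 8.52, 8.51 and 8.39 in the exposed cells at 24 h, and fell by 0.70 ± 0.13 (adjusted p = 0.00186). PDK3, also induced by hypoxia in some cells, read 8.98, 9.36 and 8.85 in control against 9.59, 10.05 and 9.68 with Ota, and was 1.63-fold higher (0.71 ± 0.17, adjusted p = 0.00896). Neither gene's groups overlapped at 24 h. At 72 h PDK1 differed by −0.35 ± 0.13 (adjusted p = 0.0616) and PDK3 by 0.23 ± 0.17 (adjusted p = 0.351), both with overlapping groups. With the replicate number as a block PDK1 was called lower at 72 h (adjusted p = 0.0208). Averaged over each gene's probe sets, PDK1 at 24 h was at 0.051 (adjusted p = 0.870) and PDK3 at 0.066 (adjusted p = 0.703), so neither call held for the mean.

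**Figure D3:**
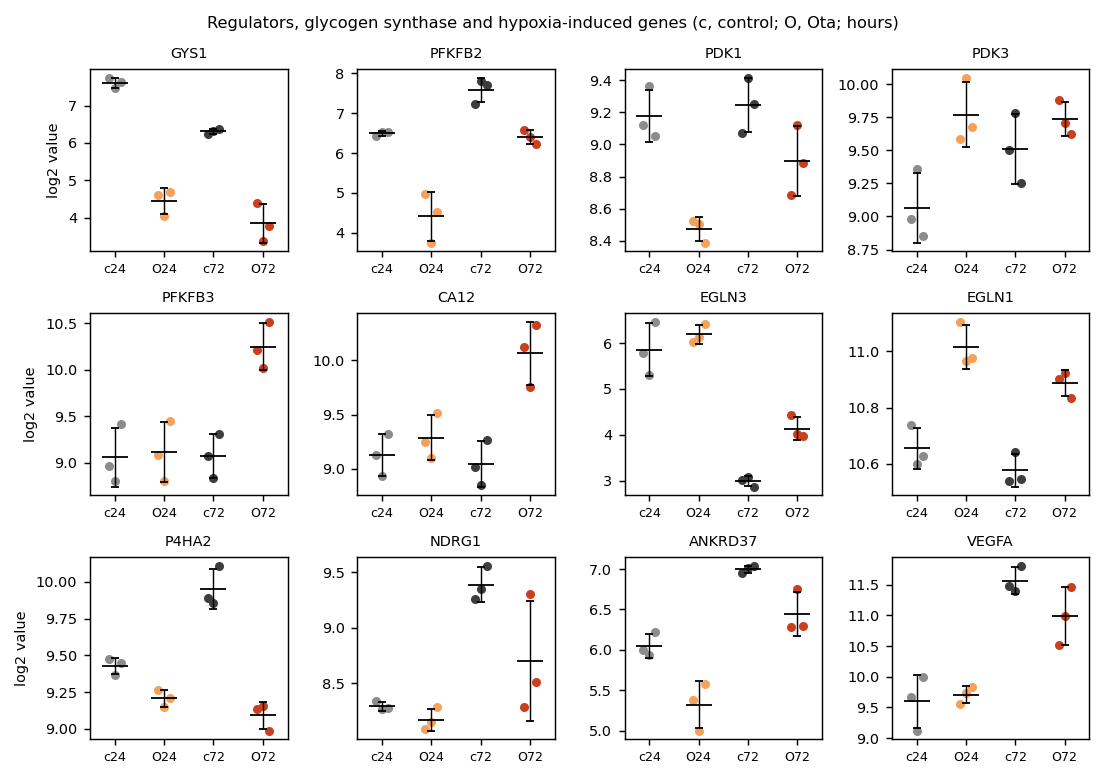
Log2 values of 12 regulators, glycogen and hypoxia genes in each group, with points for the arrays, bars for the group mean ± SD, c for control and O for Ota. PFKFB3, CA12 and EGLN3 are higher in Ota cells at 72 h, GYS1 and PFKFB2 are lower at both times, and NDRG1 and VEGFA have overlapping groups.

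The other hypoxia-induced genes divided in both directions at 72 h, when the enzymes rose. Of the 13 tested, EGLN1 rose and ANKRD37 fell at 24 h (15.4%, beside 31% of all genes), with a median of 0.04. At 72 h CA12, EGLN3 and EGLN1 rose, P4HA2, NDRG1, ANKRD37, KDM3A and MXI1 fell, with a median of −0.31 (61.5% called, beside 32% of all genes). The groups did not overlap for 9 of the 13 at 72 h and for 12 of the 16 enzymes, where 51.4% of all genes did not overlap. At 24 h this held for 4 of the 13 and 5 of the 16, where 42.7% of all genes did not overlap. The difference of the responses was called for CA12 (higher), P4HA2 and MXI1 (lower), 3 of 13 (23.1%, beside 21.3% of all genes) against 11 of 16 enzymes (68.8%). No test was made between the lists, whose genes were chosen by name with earlier results of these data known.

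CA12, a membrane carbonic anhydrase that helps to control pH, read 9.13, 8.93 and 9.32 in control and 9.25, 9.10 and 9.52 in the exposed cells at 24 h. At 72 h it read 9.02, 8.85 and 9.26 in control against 10.12, 9.75 and 10.33 with Ota. Groups overlapped at 24 h (0.16 ± 0.17) and not at 72 h, where CA12 was 2.03-fold higher (1.02 ± 0.17, adjusted p = 0.00107). The difference of its responses, 0.86 ± 0.24 (adjusted p = 0.0265), lost its call without any 1 of 8 of the 12 arrays (0.0524 to 0.0621), the exceptions being control 24 h replicate 2, Ota 24 h replicate 3, control 72 h replicate 3 and Ota 72 h replicate 2. It was also lost without the filter (0.0721). With the replicate number as a block the CA12 difference of responses kept its call (adjusted p = 0.000851).

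EGLN3 and EGLN1 encode prolyl hydroxylases that mark HIF alpha subunits for destruction and are themselves HIF targets. EGLN3 read 5.78, 5.31 and 6.47 in control and 6.02, 6.12 and 6.42 in the exposed cells at 24 h, and 3.01, 3.07 and 2.87 in control against 4.42, 4.02 and 3.97 with Ota at 72 h. It was higher at 72 h by 1.15 ± 0.24 (adjusted p = 0.00407), against a control level below the filter value of 4. Averaged over its probe sets the difference was 0.46 (adjusted p = 0.0145) at 72 h, and EGLN3 was then called higher at 24 h too (0.37, adjusted p = 0.0406). Between 24 h and 72 h EGLN3 fell in both groups, by 2.87 ± 0.24 in control and by 2.05 ± 0.24 in Ota cells. EGLN1 read 10.74, 10.60 and 10.63 in control and 11.11, 10.97 and 10.98 in the exposed cells at 24 h, and 10.54, 10.64 and 10.55 in control against 10.90, 10.92 and 10.83 with Ota at 72 h. On the brightest probe sets, EGLN1 was the only gene of the 44 called higher at both times (0.36 ± 0.08, adjusted p = 0.00533, and 0.31 ± 0.08, adjusted p = 0.0123), 1.28-fold and 1.24-fold. Averaged over its probe sets EGLN1 was not called (0.091, adjusted p = 0.513, at 24 h and 0.20, adjusted p = 0.132, at 72 h).

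P4HA2, which hydroxylates prolines in collagen, had the smallest adjusted p of the 13 hypoxia genes of the set at 72 h. It read 9.47, 9.37 and 9.45 in control and 9.26, 9.15 and 9.21 in the exposed cells at 24 h, and 9.89, 9.86 and 10.11 in control against 9.14, 9.16 and 8.99 with Ota at 72 h. At 72 h it fell by 0.86 ± 0.09 (adjusted p = 6.89e-05), and its response differed between the times by −0.64 ± 0.13 (adjusted p = 0.00661). Averaged over its probe sets the difference of responses was not called (−0.41, adjusted p = 0.146), and P4HA2 was called lower at 24 h as well (−0.55, adjusted p = 0.00877). In control cells it rose with time (0.52 ± 0.09), and in Ota cells it did not pass (−0.11 ± 0.09). P4HA1, its paralog, differed by −0.34 ± 0.17 at 72 h with overlapping groups.

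ANKRD37, a small ankyrin-repeat protein used as a hypoxia marker, was lower at both times. It read 5.99, 5.93 and 6.22 in control and 5.38, 5.00 and 5.58 in the exposed cells at 24 h, and 6.95, 7.01 and 7.04 in control against 6.28, 6.75 and 6.29 with Ota at 72 h. The groups did not overlap, and ANKRD37 fell by 0.73 ± 0.16 at 24 h (adjusted p = 0.00531) and by 0.56 ± 0.16 at 72 h (adjusted p = 0.0218). The 72 h call was lost without control replicate 2 or 3 or Ota replicate 1 or 3 (0.0528 to 0.0850), or without the filter (0.0583). Averaged over its probe sets ANKRD37 was lower by a smaller amount (−0.36, adjusted p = 0.0125, and −0.29, adjusted p = 0.0327).

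The promoters of CA12, P4HA2 and ANKRD37 are shown because these genes differ in direction at 72 h. The windows in GRCh38.p14 are chr15:63381847-63382096 on the − strand, chr5:132227092-132227341 on the − strand and chr4:185396591-185396840 on the + strand, with cores in capitals.
CA12: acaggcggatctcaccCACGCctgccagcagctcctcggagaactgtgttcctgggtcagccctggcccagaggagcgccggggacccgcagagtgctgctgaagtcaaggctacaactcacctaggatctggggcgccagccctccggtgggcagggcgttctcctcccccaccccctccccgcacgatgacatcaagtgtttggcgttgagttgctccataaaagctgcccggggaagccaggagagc
P4HA2: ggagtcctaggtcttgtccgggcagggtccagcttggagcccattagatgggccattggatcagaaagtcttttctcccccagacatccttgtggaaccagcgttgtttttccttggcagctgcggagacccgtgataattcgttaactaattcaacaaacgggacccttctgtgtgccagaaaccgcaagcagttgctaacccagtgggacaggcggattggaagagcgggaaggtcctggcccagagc
ANKRD37: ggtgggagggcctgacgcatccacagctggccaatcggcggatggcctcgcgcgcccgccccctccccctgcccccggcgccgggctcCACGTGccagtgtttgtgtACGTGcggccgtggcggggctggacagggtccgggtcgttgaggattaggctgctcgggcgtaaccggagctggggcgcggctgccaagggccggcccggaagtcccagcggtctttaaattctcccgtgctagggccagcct
CA12, which rose, has 1 core, of the GCGTG form, while ANKRD37, which fell, has 3 of the ACGTG form and P4HA2, which also fell, has none. A core was present in 7 of the 10 hypoxia promoters in the table (70.0%), 4 of them with ACGTG (40.0%). Over all promoters these shares were 42.6% and 18.5%, and over the 38 genes of the set 63.2% and 34.2%.

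The remaining falls at 72 h were smaller or less sure. NDRG1, a stress and hypoxia gene, read 9.26, 9.35 and 9.56 in control and 8.28, 9.31 and 8.51 in Ota cells. Ota replicate 2 lay inside the control range, and the call (−0.69 ± 0.21, adjusted p = 0.0256) was lost without control replicate 2 or 3 or Ota replicate 1 or 3 (0.0530 to 0.103), without the filter (0.0764) or with only the arrays compared fitted (0.0779). KDM3A, a histone demethylase, read 9.39, 9.42 and 9.36 in control against 9.07, 9.16 and 8.88 with Ota, and fell by 0.35 ± 0.12 (adjusted p = 0.0422), a call lost without any 1 array but Ota replicate 2 (0.0829 to 0.151), without the filter (0.0728) and averaged over its probe sets (0.0730). MXI1, an antagonist of MYC, read 10.04, 10.22 and 9.96 in control against 9.80, 9.70 and 9.77 with Ota, and fell by 0.31 ± 0.09 (adjusted p = 0.0218). Its call was lost without control replicate 2 or Ota replicate 2 or 3 (0.0508 to 0.0794). Without control replicate 2 only 1 of the 13 hypoxia genes was called lower at 72 h, and without any other array of the comparison at most 4 were.

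VEGFA, BNIP3, BNIP3L, ADM and P4HA1 passed in no Ota comparison. VEGFA, the vascular growth factor, read 11.48, 11.41 and 11.82 in control and 10.51, 10.99 and 11.46 in Ota cells at 72 h, overlapping by Ota replicate 3 (−0.58 ± 0.25, adjusted p = 0.0963). It rose with time by 1.97 ± 0.25 in control cells and 1.28 ± 0.25 in Ota cells. BNIP3 and BNIP3L, which mark mitochondria for removal, differed by 0.24 ± 0.12 and −0.15 ± 0.09 at 72 h. ADM, the vasodilator peptide adrenomedullin, differed by 0.13 ± 0.19. Averaged over their probe sets VEGFA was called lower at 72 h (−0.67, adjusted p = 0.0345) and BNIP3 higher (0.25, adjusted p = 0.0445). With the replicate number as a block VEGFA (adjusted p = 0.0306) and P4HA1 (0.0305) were called lower at 72 h. In control cells over time 5 hypoxia genes rose and EGLN3 fell, 46.2% of the 13 and close to the 46.4% of all genes called.

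Among the genes that sense oxygen only HIF1A passed, at 72 h. HIF1A, which encodes an alpha subunit controlled mainly through protein stability, read 14.21, 14.13 and 14.08 in control and 14.48, 14.39 and 14.59 in Ota cells (0.35 ± 0.08, adjusted p = 0.00884), without overlap. EPAS1, which encodes the related HIF2 alpha subunit, differed by −0.57 ± 0.21 at 24 h (adjusted p = 0.0578) and −0.55 ± 0.21 at 72 h (adjusted p = 0.0647), with all Ota arrays below all control arrays at each time. With the replicate number as a block EPAS1 was called lower at 24 h (adjusted p = 0.00767) and at 72 h (0.00928). HIF1AN, an asparagine hydroxylase that inhibits HIF, and VHL, the ubiquitin ligase subunit that binds hydroxylated HIF, differed by 0.03 ± 0.10 and 0.03 ± 0.25 at 72 h.

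Over all 44 genes, 2 rose and 7 fell at 24 h (20.5%, beside 31% of all genes), and 16 rose and 7 fell at 72 h (52.3%, beside 32%). Median differences were −0.11 at 24 h and 0.15 at 72 h. On the brightest probe sets the genes that fell at both times were GYS1, PFKFB2 and ANKRD37, and 14 genes rose at 72 h without a call at 24 h. The share of all genes with either pattern is not given here. Averaged over its probe sets PFKFB2 was not called at 72 h (0.20, adjusted p = 0.174). With arrays shifted to a common median 2 genes rose and 5 fell at 24 h, and 15 rose and 7 fell at 72 h. At 24 h this shift moved the median of all genes by 0.12 and their calls from 1010 higher and 2307 lower (30.4% higher) to 1881 and 1697 (52.6%).

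**Figure D4:**
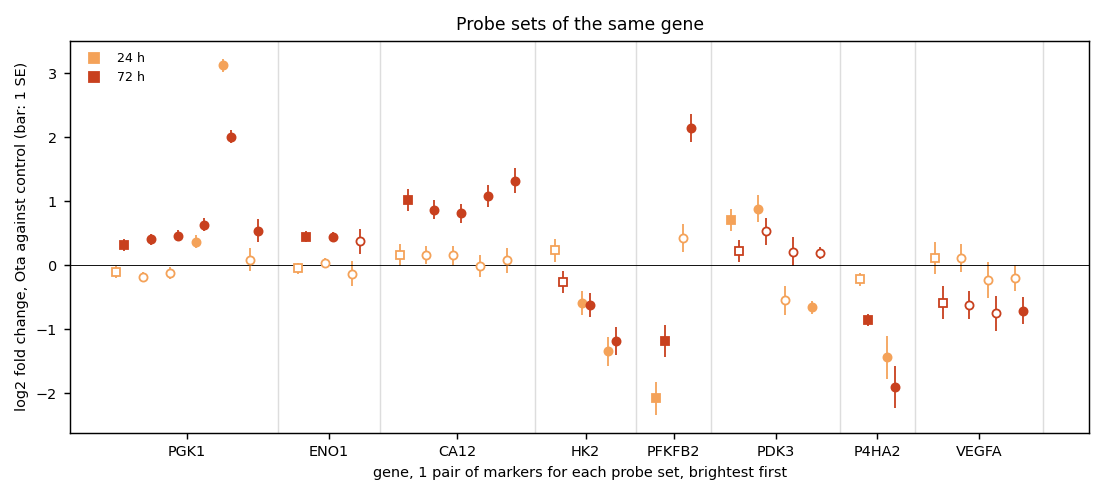
Log2 difference between Ota and control cells at 24 h and 72 h for each probe set above the filter of PGK1, ENO1, CA12, HK2, PFKFB2, PDK3, P4HA2 and VEGFA, with bars of 1 standard error; squares mark the probe set used for the gene and filled symbols passed the test. The CA12 probe sets agree in direction at 72 h, while PFKFB2 and PDK3 each have probe sets on both sides of 0.

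Probe sets of the same gene did not always give the same answer. In a fit over the 19460 probe sets above the filter, 5 of the 85 member probe sets were higher and 13 lower at 24 h, and 28 higher and 10 lower at 72 h, where 31.4% and 29.2% of all probe sets were called. Of the 22 genes with several probe sets above the filter, PDK3 had calls in opposite directions at 24 h and PFKFB2 at 72 h, and PGK1 in the difference of the responses. PDK3 was higher on 228959_at (0.71) and 230085_at (0.88) and lower on 206348_s_at (−0.66). PFKFB2 was lower on 226733_at (−1.18) and higher on 209992_at (2.14) at 72 h, and the mean over the gene's probe sets differed by 0.20 (adjusted p = 0.174). At 72 h PFKFB2 thus had calls in both directions.

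CA12 was higher at 72 h on all 5 of its probe sets above the filter, by 0.81 to 1.32, and PGK1 on all 6. PGK1 probe set 1558365_at differed from the others: it read 5.69, 5.74 and 5.72 in control and 8.76, 9.03 and 8.73 in the exposed cells at 24 h. At 72 h it read 6.01, 6.03 and 6.24 in control against 8.07, 8.16 and 8.06 with Ota. Its difference was 3.13 ± 0.10 at 24 h (adjusted p = 9.93e-09) and 2.01 ± 0.10 at 72 h, while the 5 others were higher by 0.32 to 0.63 at 72 h. The response on 1558365_at was smaller at 72 h than at 24 h, with a difference of −1.12 ± 0.15 (adjusted p = 0.000894), opposite to the 0.42 of the probe set used for the gene. HK2, whose brightest probe set did not pass, was lower on 239410_at (−0.59 at 24 h, −0.62 at 72 h) and on 222305_at (−1.34 and −1.18). P4HA2 probe set 1568611_at was lower at both times (−1.44 and −1.91). Where in its transcript each probe set lies was not analysed here.

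Other genes of the same pathways, from lists that hold none of the 48, were counted in the same fit. Of 21 further glycolysis and glucose genes none rose and 3 fell at 24 h, and 5 rose and 3 fell at 72 h. These are 14.3% and 38.1%, the former below and the latter near the 31% and 32% of all genes. At 24 h the smallest p-values were those of G6PC3, a glucose-6-phosphatase (−0.53, adjusted p = 0.00148), and PGM2, a phosphopentomutase (−0.69, adjusted p = 0.0104). At 72 h they were GYG1, the glycogenin that primes glycogen (−0.49, adjusted p = 0.00172), and MPC2, a subunit of the mitochondrial pyruvate carrier (0.42, adjusted p = 0.00460). GYG1 and GYS1 act in glycogen synthesis and were lower at 72 h, while GBE1, which also acts there, passed at neither time. GYG1 is named only for its small p-value, and glycogen synthesis as a whole was not tested.

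Of 19 further hypoxia-induced genes 2 rose and 5 fell at each time. DDIT4, an inhibitor of mTORC1, fell by 1.62 ± 0.13 at 24 h (adjusted p = 6.12e-06) and by 1.53 ± 0.13 at 72 h (adjusted p = 1.45e-05). ERO1A, an oxidase of the endoplasmic reticulum, fell by 0.78 ± 0.12 at 24 h (adjusted p = 0.000538), and TMEM45A, a membrane protein, by 2.04 ± 0.22 at 72 h (adjusted p = 7.28e-05). Of 8 further oxygen-sensing genes, ARNT, the partner of the HIF alpha subunits, was the 1 that fell at 24 h (−0.64, adjusted p = 0.00892). At 72 h 1 rose and 2 fell, the latter being ELOB, a subunit of the VHL complex (−0.999, adjusted p = 9.88e-05), and SIAH2, a ubiquitin ligase that acts on prolyl hydroxylases (−0.51, adjusted p = 0.00871). Of the further hypoxia genes 36.8% were called at each time, near the 31% and 32% of all genes. Among the further oxygen-sensing genes 12.5% were called at 24 h, below the 31%, and 37.5% at 72 h, near the 32%.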

How the data were processed

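Total RNA of 12 HK-2 cultures was hybridised to Affymetrix arrays. Each probe set has 1 deposited value per array, in log2 units, which the authors computed using GCRMA, as the submitters' processing notes state; its version, array scan batches and other settings are not given in the sources used here. GCRMA normalizes by quantiles and flattens low signals, so a shift of all RNA and folds near the floor are poorly measured. Precision is limited by how many arrays there are, since arrays carry no depth.

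Tests left out 62 control probe sets. Symbols came from the platform annotation, updated through a RefSeq table of GRCh38.p14: 41097 probe sets had 1 symbol (54 kept the old one), 1801 several and 11777 none. A gene was read from its single-symbol probe set with the highest mean; 22 of the 44 genes tested were read from probe sets of types that can match other transcripts. limma 3.58.1 under R 4.3.3 (lmFit, eBayes) fitted 1 mean per group, with 8 residual and 3.31 prior degrees of freedom, after a filter of log2 over 4 on at least 3 arrays. The difference of responses is the interaction of Ota and time. The code was tested on simulated data. Genes that pass in an Ota comparison or in the difference of responses are named with their array values, with up to 2 further genes per list and comparison by smallest p. Same-numbered replicates deviated together at 24 h (correlations 0.44, 0.32 and 0.45), so the numbers pair those samples. The main fit did not use this pairing, and the replicate block is given as an alternative. Members, lists and tests were chosen with earlier results of these data known. Alternatives covered scaling, filter, probe set, replicate block, arrays fitted, eBayes settings and each replicate left out.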

Additional observations from a re-analysis of the deposited data

Results flagged for a closer look

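The response to Ota differed between 24 h and 72 h by the interaction test in limma, at an adjusted p under 0.05, for 15 of the 44 genes, 34.1% beside 21.3% of all genes (15.5% towards a higher value at 72 h and 5.79% towards a lower one). Towards a higher value at 72 h the differences on the log2 scale were 1.46 for ENO2, 1.13 for PFKFB3, 0.86 for CA12, 0.75 for HK1, 0.69 for PGAM1, 0.68 for PFKM, 0.65 for TPI1, 0.59 for GPI, 0.58 for PKM, 0.53 for PFKP, 0.49 for ENO1, 0.42 for PGK1 and 0.38 for LDHA. Towards a lower value they were −0.64 for P4HA2 and −0.42 for MXI1. PKM lost its call without any 1 of 11 of the 12 arrays (adjusted p 0.0542 to 0.0975), the exception being control 24 h replicate 3. PFKP lost it without any 1 of 7 arrays (0.0513 to 0.0591), all but control 24 h replicates 2 and 3, control 72 h replicate 3 and replicate 1 of both Ota groups. MXI1 lost it without any 1 of 8 (0.0637 to 0.0852), all but control 24 h replicates 2 and 3, Ota 24 h replicate 3 and control 72 h replicate 3. PGK1 lost it without control 24 h replicate 1, Ota 24 h replicate 1 or 3, control 72 h replicate 2 or Ota 72 h replicate 1 (0.0518 to 0.0710). LDHA lost it without Ota 24 h replicate 1, control 72 h replicate 1 or 3 or Ota 72 h replicate 3 (0.0543 to 0.0574). PFKM lost it without control 24 h replicate 1, control 72 h replicate 3 or Ota 72 h replicate 1 (0.0516 to 0.0600). CA12 lost it without any 1 of 8 arrays (0.0524 to 0.0621). With the replicate number as a block each of the 15 genes kept its call, CA12 at 0.000851 and PFKFB3 at 0.000266. In the genes ENO2, HK1, PGAM1, TPI1, GPI, ENO1, PFKFB3 and P4HA2 the call held without any 1 array. Of these, P4HA2 lost it averaged over its probe sets (adjusted p = 0.146) and PFKFB3 without the filter (0.0599). GPI (0.0586) and ENO1 (0.0815) lost it with arrays shifted to a common median.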

How the results depend on the processing

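Over the 47 calls of the genes in the 3 Ota comparisons, 620 alternative values kept direction and side of the threshold, 109 kept direction but missed it, and 2 reversed: averaged over probe sets, PDK1 was at 0.051 at 24 h (adjusted p = 0.870) and PFKFB2 at 0.20 at 72 h (adjusted p = 0.174). Direction could not change under the filters, replicate block, eBayes settings or fit of only the arrays compared, which leave each difference as it was. Nor could it under the probe set mean for genes with 1 probe set. Where 7 genes were lower at 72 h, the count was 4 without a filter and 11 with the replicate block. With arrays shifted to a common median, 7 rather than 13 genes had a higher response at 72 h than at 24 h, the median of the enzymes for that difference was 0.37 rather than 0.51, and 12 rather than 7 genes were lower with time in Ota cells. With the mean of probe sets 1 rather than 2 genes had a lower response at 72 h. Leaving out 1 array gave 3 to 8 genes lower at 72 h (3 without control replicate 2) and 13 to 14 higher, 8 to 14 with a higher response at 72 h (8 without control 24 h replicate 1) and 1 to 2 with a lower one, and 2 to 3 higher and 6 to 10 lower at 24 h. The causes were not tested. At 72 h same-numbered replicates correlated at 0.11, 0.07 and 0.27, and 4 of the 6 samples correlated best with their own number. Between the times 5 of 6 did so in control cells and 6 of 6 in Ota cells. The main fit used no pairing at either time. The replicate block gave 16 higher and 11 lower at 72 h, and 2 and 10 at 24 h. At 72 h it added PDK1, VEGFA, P4HA1 and EPAS1 to the genes called lower. The interaction gave 15 and 2 with the block, the time course 10 and 16 in control cells and 11 and 8 in Ota cells. Signal near the floor limits GYS1, PFKFB2, EGLN3 and PFKFB4, and 3 arrays a group limit which differences can be called.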
